A study of Mus musculus with 6 samples.

Results

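The genes described here encode 10 isoforms of 5 glycolytic enzymes: the hexokinases Hk1 and Hk2, the phosphofructokinases Pfkl, Pfkm and Pfkp, the aldolases Aldoa and Aldoc, the pyruvate kinase Pkm, and the lactate dehydrogenases Ldha and Ldhb. They were chosen by symbol from 24346 genes by a rule that uses no measured value, and all 10 are in the tables and passed the filter on low values. RNA-seq was done on whole retinas of mice at postnatal day 12. The 3 triple-deficient libraries carry the genotype Panky-/-;Panky-like-/-;Nrl-/-, and the 3 control libraries the genotype Panky+/-;Panky-like+/-;Nrl-/-. All 6 libraries are thus labelled null for Nrl, the transcription factor of the rod fate, whose loss is known to leave cone-like cells in place of rods, and the controls are heterozygous rather than wild type. Panky is Ankrd33, a transcriptional co-repressor of photoreceptors, and Panky-like was read as the related gene Ankrd33b, a match that the labels do not state.

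Glycolysis breaks glucose down to pyruvate in the cytosol. Hexokinase traps glucose by phosphorylation, phosphofructokinase carries out the committed step, aldolase splits the resulting sugar, and pyruvate kinase makes pyruvate and ATP. Lactate dehydrogenase then reduces pyruvate to lactate and regenerates NAD+. The retina is known for aerobic glycolysis, the release of much lactate in the presence of oxygen, and photoreceptors are a main site of it.

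The libraries held an estimated 18.1 to 27.2 M fragments. Opn1sw, the short-wavelength cone opsin, stood at 1406 to 1565 FPKM (a level corrected for transcript length and library size) in triple-deficient and 1503 to 1568 FPKM in control libraries. Of 11 cone markers, all tested, none passed, and 5 were higher in triple-deficient libraries, with a median log2 difference of -0.0036. Thrb, the 1 with an unadjusted p below 0.05, averaged 26.0 ± 0.858 and 23.5 ± 1.16 FPKM in triple-deficient and control libraries. Pde6h went the other way, at 818 ± 67.9 and 906 ± 7.37 FPKM (SD, n = 3 each). Of 10 markers listed for rods 8 were tested, 2 had an unadjusted p below 0.05 and none passed. The 2 were Pde6a, a phosphodiesterase subunit, at 19.5 ± 2.72 and 12.8 ± 1.22 FPKM, and the rod regulator Nr2e3, at 4.42 ± 0.179 and 3.69 ± 0.085 FPKM, in triple-deficient and control libraries (SD, n = 3 each). The summed level of the list was 1655 to 1720 FPKM in triple-deficient and 1613 to 1711 FPKM in control libraries. Cnga1, a channel subunit of rods, was at or near 0 in each library, and Gnat1, their transducin subunit, stood at 0.269 to 0.367 FPKM in triple-deficient and 0.345 to 0.514 FPKM in control libraries. The highest level in the list was that of Sag, an arrestin also found in cones, with an average of 1289 FPKM in triple-deficient and 1292 FPKM in control libraries. Nrl RNA was present at 52.6, 51.3 and 53.7 FPKM in triple-deficient libraries, against 49.2, 38.3 and 45.0 FPKM in controls (log2 difference 0.25, limma adjusted p = 0.861), and gene-level values do not show whether these transcripts are disrupted. Ankrd33b had 1.80, 1.31 and 1.39 FPKM in triple-deficient libraries 1, 2 and 3, against 35.4, 32.6 and 33.4 FPKM in controls. Ankrd33 had 56.6, 59.6 and 50.5 FPKM in triple-deficient libraries, against 105, 104 and 109.7 FPKM in controls. Both fell, by 3.80 and 0.93 on the log2 scale (limma adjusted p = 4.56e-07 and 0.00274). Triple-deficient 3 stood apart in base composition: over 14223 genes its deviations from the mean of the 6 libraries correlated with GC content at Spearman -0.59, against 0.07 to 0.30 in the others. RNA of the lens crystallins was highest in control 1: the crystallin gene Cryaa had 4.61 FPKM in that library and no more than 0.129 FPKM in any other. Of the 9 lens markers listed, Mip and Bfsp1 were not highest there, at 0.252 and 0.563 FPKM in control 1.

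None of the 10 enzyme genes passed the test of a difference between the genotypes. Across all 14325 genes tested, limma's moderated test called 4, which is 0.0279%, so no call among 10 genes is close to that background. No enzyme gene had groups that did not overlap, where 1504 of all genes tested, 10.5%, had such groups. None had an unadjusted p below 0.05, where 729 genes, 5.09%, did. Differences of mean log2(FPKM + 1), triple-deficient minus control and called log2 changes from here on, ran from -0.03 to 0.07 over the 10 genes. Of the 10 changes 7 were above 0, with a median of 0.02, against 51.8% and a median of 0.0034 over all genes tested. Adjusted p-values ran from 0.955 to 0.997.

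The intervals say how large a difference the data could still hold. In the main fit, the widest bound of any 95% confidence interval among the 10 genes was 0.20 on the log2 scale, a 1.15-fold difference of FPKM + 1. Intervals of 38.2% of all genes tested lay within that bound. A difference beyond it in either direction lay outside the interval of each of the 10 genes in that fit. Other settings gave wider bounds, as far as -0.31 with no filter on low values and -0.27 without control 1. In whole retina, fewer cells of a type and less RNA per cell cannot be told apart.

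**Figure D1:**
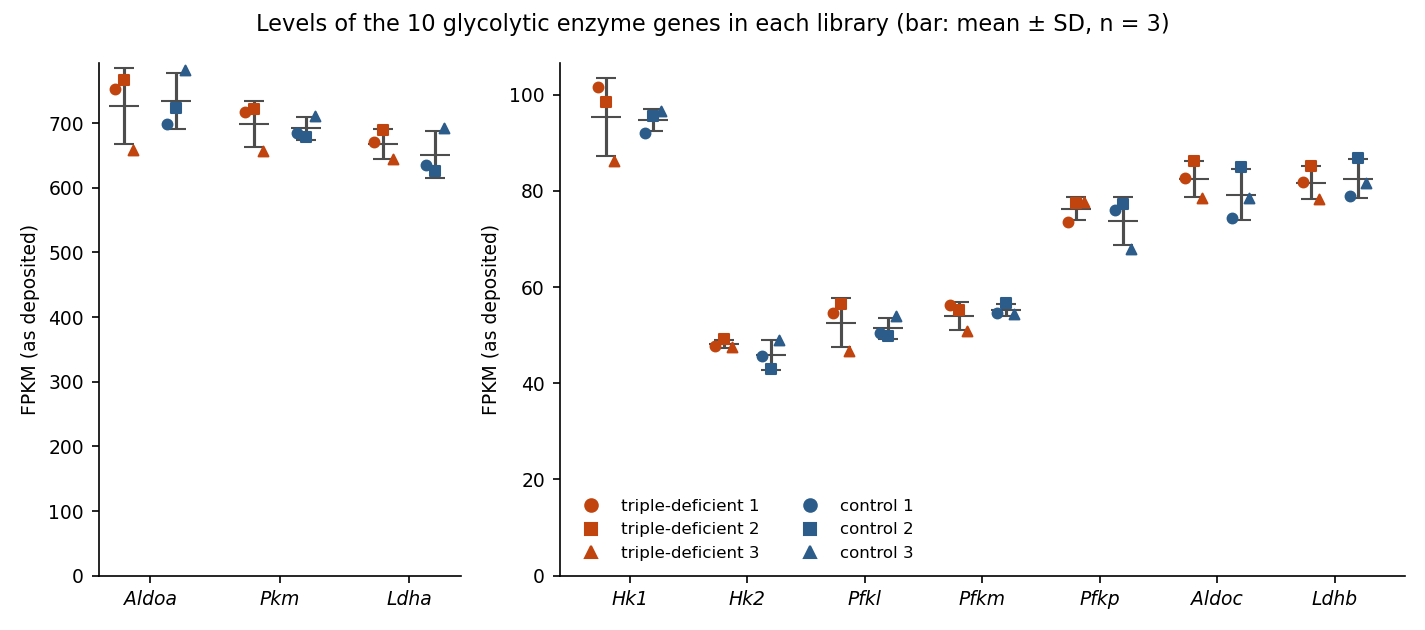
FPKM of each enzyme gene in each library, with triple-deficient libraries in orange to the left of controls in blue, and the mean and SD of 3 libraries as bars. The 2 groups overlap for all 10 genes, and Aldoa, Pkm and Ldha stand far above the other 7.

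The enzyme genes fell into a high tier and a lower tier. Aldoa, Pkm and Ldha averaged 730.2, 695 and 659 FPKM over the 6 libraries, and ranked 16 to 23, 19 to 25 and 22 to 32 among the 24346 genes of a library. The other 7 ran from 47.0 FPKM for Hk2 to 95.1 FPKM for Hk1. The order was Aldoa, Pkm, Ldha, Hk1, Ldhb, Aldoc, Pfkp, Pfkm, Pfkl and Hk2. The 2 gaps in this order that no library bridged lay between Ldha and Hk1 and between Pfkp and Pfkm. Aldoa was above Pkm and Pkm above Ldha in 6 of 6 libraries, although their ranges overlap. Ldhb and Aldoc, at 82.1 and 80.9 FPKM, kept that order in only 3 of 6 libraries and did not differ beyond their spread. Together the 10 genes held 0.68%, 0.683% and 0.628% of all FPKM in triple-deficient libraries 1, 2 and 3, against 0.638%, 0.647% and 0.673% in controls.

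Hexokinase starts the pathway. Hk1, the broadly expressed isoform (chromosome 10, 62268855 to 62379920 of GRCm38), had 102, 98.6 and 86.2 FPKM in triple-deficient libraries 1, 2 and 3, against 92.1, 95.6 and 96.6 FPKM in control libraries 1, 2 and 3. The highest and the lowest value both came from triple-deficient libraries, and the groups averaged 95.4 ± 8.11 and 94.7 ± 2.34 FPKM (SD, n = 3 each). Its log2 change was 0.01 (95% interval -0.14 to 0.16). Hk2, the isoform known from photoreceptors and from tumours with high glycolysis (chromosome 6, 82725025 to 82774454), had 47.7, 49.1 and 47.5 FPKM, against 45.6, 43.0 and 49.0 FPKM in controls. The triple-deficient values all lay within 1 narrow band, and control 3 lay within that band while controls 1 and 2 lay below it. Group means were 48.1 ± 0.884 and 45.9 ± 3.03 FPKM (SD, n = 3 each), and the log2 change of 0.07 (SE 0.055, interval -0.06 to 0.20, limma adjusted p = 0.955) was the largest of the 10. Hk1 made up 68.0%, 66.7% and 64.5% of the summed hexokinase FPKM in triple-deficient libraries, against 66.9%, 69.0% and 66.3% in controls. Of the relatives, Hkdc1, a further hexokinase-like enzyme, averaged 14.3 ± 0.756 and 14.6 ± 1.18 FPKM, and Hk3 stayed at or below 0.13 FPKM in each library. The antisense gene Hk1os lies within Hk1, at 1.15 to 2.42 FPKM. Whether strand was used in the authors' counting is not given in the sources used here.

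Phosphofructokinase works as a tetramer that the liver, muscle and platelet subunits Pfkl, Pfkm and Pfkp can form together. All 3 were present, with Pfkp above the other two in each library. Pfkp (chromosome 13, 6579874 to 6649060) had 73.5, 77.5 and 77.8 FPKM in triple-deficient libraries, against 76.0, 77.2 and 68.0 FPKM in controls, a log2 change of 0.05 (interval -0.08 to 0.18). Control 3 alone was low, and the other 5 libraries lay close together. Pfkm had 56.2, 55.2 and 50.8 FPKM in triple-deficient libraries, against 54.6, 56.6 and 54.4 FPKM in controls, a log2 change of -0.03 (interval -0.15 to 0.09). Here triple-deficient 3 was the lowest of the 6. Pfkm lies on chromosome 15 (98092589 to 98132447), 2.98 Mb from the targeted gene Ankrd33, and overlaps Senp1, at 6.59 to 7.82 FPKM, over 981 bases. Pfkl (chromosome 10, 77986947 to 78009807) had 54.7, 56.4 and 46.8 FPKM, against 50.4, 49.9 and 54.0 FPKM in controls, a log2 change of 0.03 (interval -0.14 to 0.20). Triple-deficient 1 and 2 lay above all controls and triple-deficient 3 below all of them, and the SD was 5.14 FPKM among triple-deficient libraries and 2.24 FPKM among controls.

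The make-up of the enzyme was mixed in both genotypes. Pfkp took 39.9%, 41% and 44.4% of the summed phosphofructokinase FPKM in triple-deficient libraries, against 42.0%, 42.0% and 38.6% in controls. The Pfkm share was 30.5%, 29.2% and 29.0%, against 30.2%, 30.8% and 30.8%, and the Pfkl share 29.6%, 29.8% and 26.7%, against 27.8%, 27.1% and 30.6%. No subunit reached a majority in any library, and the groups overlapped for each share.

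**Figure D2:**
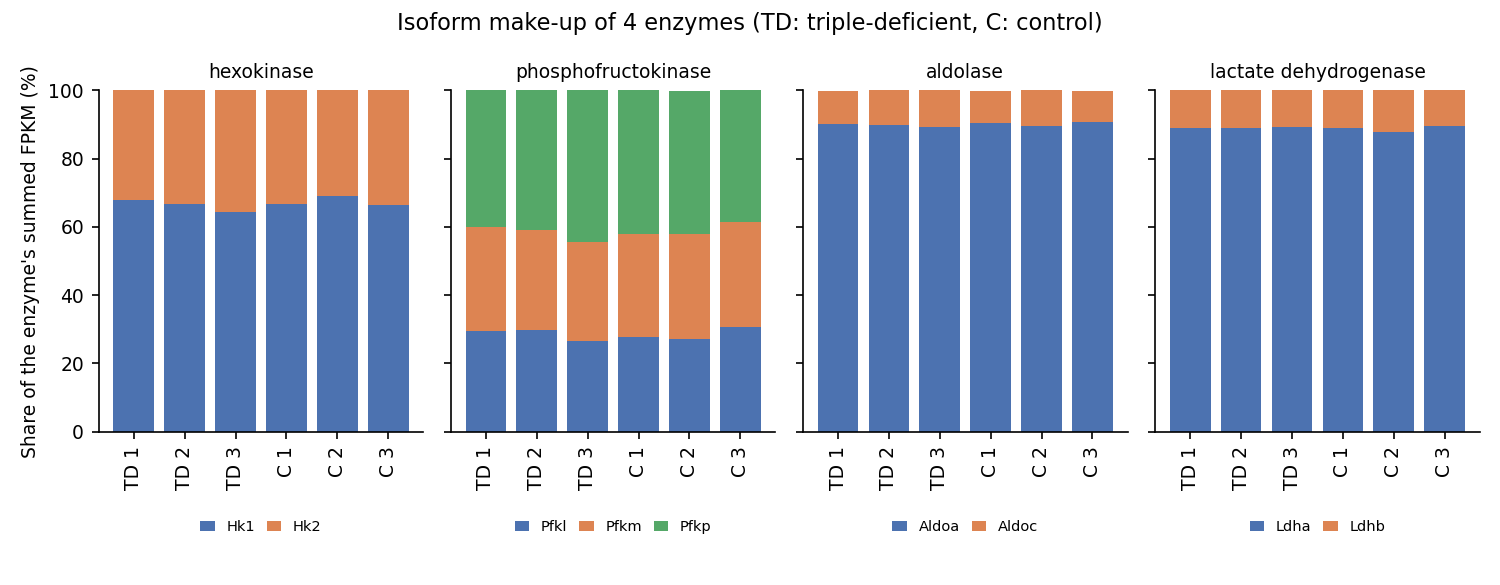
Share of each isoform in the summed FPKM of its enzyme (percent, y axis) in triple-deficient libraries 1 to 3 and control libraries 1 to 3 (x axis). Aldoa and Ldha make up 87.8% or more of the summed FPKM of their enzymes in each library, whereas the RNA of hexokinase and phosphofructokinase is mixed.

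Aldolase RNA was dominated by Aldoa, the muscle-type isoform (chromosome 7, 126795234 to 126800994). It had 753, 766 and 659 FPKM in triple-deficient libraries, against 698, 723 and 783 FPKM in controls, a log2 change of -0.02 (interval -0.19 to 0.15). The lowest value was that of triple-deficient 3 and the highest that of control 3. Aldoc, the brain-type isoform that is used as a marker of astrocytes and some neurons (chromosome 11, 78323073 to 78327781), had 82.7, 86.2 and 78.6 FPKM, against 74.3, 84.9 and 78.5 FPKM in controls, a log2 change of 0.06 (interval -0.08 to 0.20). Control 1 was the low library for Aldoc. Aldoa was 9.10, 8.88 and 8.38 times Aldoc in triple-deficient libraries, against 9.39, 8.52 and 9.97 times in controls. Of 10 Müller glia markers, all tested, none passed and 1 had an unadjusted p below 0.05. Their summed level was 1883 to 2036 FPKM in triple-deficient and 2077 to 2137 FPKM in control libraries, 6 of the 10 log2 changes were above 0 with a median of 0.0060, and none of the markers was at 0. Apoe, a lipid carrier and the marker with that p, had 545, 516 and 437 FPKM in triple-deficient libraries, against 629.7, 569 and 599 FPKM in controls. It was the only marker of the 10 whose groups did not overlap, so the gap between the sums does not hold for the list as a whole. The part of these markers in the Aldoc values was not tested. Of the retrocopies, Aldoart2 was at 0.321 to 0.702 FPKM and Aldoart1 was listed at 0 in each library. How reads shared with such copies were assigned is not given in the sources used here.

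Pkm encodes the PKM1 and PKM2 enzymes by a choice between alternative exons (chromosome 9, 59656576 to 59679372). It had 718, 721 and 657 FPKM in triple-deficient libraries, against 685, 678 and 711 FPKM in controls, a log2 change of 0.01 (SE 0.058, interval -0.12 to 0.15). Triple-deficient 1 and 2 were the highest libraries and triple-deficient 3 the lowest. The tables give 1 value per gene, so PKM1 and PKM2 transcripts are not distinguished. Ptbp1 and Hnrnpa1, splicing factors known to favour the PKM2 form, averaged 29.8 ± 1.69 and 72.9 ± 6.94 FPKM in triple-deficient retinas and 28.8 ± 0.774 and 68.3 ± 3.39 FPKM in controls. Neither passed the test. Pklr, the pyruvate kinase gene of liver and red cells, was below the filter, at 0.255 ± 0.099 and 0.195 ± 0.025 FPKM (SD, n = 3 each).

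Lactate dehydrogenase is a tetramer of LDHA subunits, which favour lactate formation, and LDHB subunits. Ldha (chromosome 7, 46842274 to 46855627) had 670.1, 689 and 644 FPKM in triple-deficient libraries, against 635, 625 and 693 FPKM in controls, a log2 change of 0.04 (SE 0.060, interval -0.10 to 0.18). Control 3 was the highest library and controls 1 and 2 the lowest, so the triple-deficient values lay inside the range of the controls. Ldhb (chromosome 6, 142490249 to 142507957) had 81.8, 85.1 and 78.3 FPKM, against 78.9, 86.9 and 81.7 FPKM in controls, a log2 change of -0.01 (interval -0.14 to 0.11). Ldha made up 89.1%, 89.0% and 89.2% of the summed FPKM in triple-deficient libraries, against 89.0%, 87.8% and 89.5% in controls. Of all the isoform shares, this one varied least among the triple-deficient libraries, with an SD of 0.083 percentage points, against 0.848 points among controls. Ldhc, the testis isoform, was listed at 0 in 4 libraries and stayed below 0.05 FPKM.

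The annotated promoters of the lactate dehydrogenase genes are shown because their RNA levels differ 7.20-fold to 8.48-fold within each library. The aldolase genes, whose levels differ 8.38-fold to 9.97-fold, would qualify on the same ground. RefSeq windows of GRCm38.p6, from 250 bases before to 50 after an annotated start, were found for all 10 genes, 19 windows in all. The letters searched on both strands were ACGTG, the core of the hypoxia response element, CACGTG, the E-box, which contains that core on each strand, and TAATCC, a core recognised by Crx, the photoreceptor factor that Ankrd33 is known to act on. The GC box, GGGCGG, was searched too, and was found in 8 of the 19 windows and in 35.7% of all windows. In the Ldha and Ldhb sequences capitals mark CACGTG, or CACGT, which reads ACGTG on the opposite strand. Ldha is shown at chr7:46845554-46845853 on the plus strand and Ldhb at chr6:142507908-142508207 on the minus strand, each 5′ to 3′.
Ldha: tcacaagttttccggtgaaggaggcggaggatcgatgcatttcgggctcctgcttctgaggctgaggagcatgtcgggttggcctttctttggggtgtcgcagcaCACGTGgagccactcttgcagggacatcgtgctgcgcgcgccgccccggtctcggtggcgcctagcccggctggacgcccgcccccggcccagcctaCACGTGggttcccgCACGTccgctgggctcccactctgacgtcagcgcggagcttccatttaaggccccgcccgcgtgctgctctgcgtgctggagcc
Ldhb: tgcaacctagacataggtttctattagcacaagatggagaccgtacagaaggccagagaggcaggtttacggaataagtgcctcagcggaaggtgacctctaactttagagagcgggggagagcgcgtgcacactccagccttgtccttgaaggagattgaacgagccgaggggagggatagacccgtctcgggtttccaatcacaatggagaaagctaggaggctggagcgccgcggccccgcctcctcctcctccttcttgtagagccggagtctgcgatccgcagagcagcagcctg
The Ldha window shown holds 5 matches to ACGTG, 4 of them in 2 E-boxes, and the Ldhb window holds none. The other Ldha window and the first Pkm window hold none either, while the second Pkm window holds 2. A Pfkm window holds 3 and the Hk2 window 2, for genes that averaged 54.6 and 47.0 FPKM. Aldoa and Aldoc, which also differ widely in level, each have a window with 1 match. Whether matches go with level was not tested. ACGTG was found in 9 of the 19 windows, from 7 of the 10 genes, and in 19.6% of all 32851 windows. The Aldoa windows 1 and 2 overlap and hold the same ACGTG site, which is thus counted 2 times, and both also count for the GC box. Genes have up to 4 windows each, so the number of genes cannot be set beside a share of windows. CACGTG was found in 2 of the 19 windows, from Ldha and Pfkm, and in 7.15% of all windows. A match is no evidence that a factor binds there.

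TAATCC was found in 4 of the 19 windows, from Pfkm, Pfkp, Aldoc and Ldha, and in 7.06% of all windows. For Pfkm and Ldha it lies in a window of an alternative start. Pfkp at chr13:6648722-6649021 on the minus strand and Aldoc at chr11:78322823-78323122 on the plus strand are shown because theirs lies at the only or the most upstream of the starts found. Capitals mark TAATCC and, in Aldoc, also CACGT, 1 match to ACGTG on the opposite strand.
Pfkp: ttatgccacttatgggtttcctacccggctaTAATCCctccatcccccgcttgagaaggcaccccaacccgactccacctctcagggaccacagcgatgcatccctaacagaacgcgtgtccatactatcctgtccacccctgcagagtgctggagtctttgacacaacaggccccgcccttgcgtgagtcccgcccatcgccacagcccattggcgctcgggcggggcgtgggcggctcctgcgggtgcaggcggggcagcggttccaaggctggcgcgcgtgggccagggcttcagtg
Aldoc: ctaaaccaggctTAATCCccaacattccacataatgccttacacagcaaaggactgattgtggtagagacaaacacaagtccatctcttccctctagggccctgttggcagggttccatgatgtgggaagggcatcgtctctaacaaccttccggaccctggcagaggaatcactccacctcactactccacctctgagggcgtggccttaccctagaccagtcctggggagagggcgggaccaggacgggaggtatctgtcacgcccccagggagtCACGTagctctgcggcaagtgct

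Counting error was set beside the spread between libraries. Taking the longest annotated transcript, which overstates the fragments of genes that use a shorter one, the smallest estimate for any gene and library was 1850 fragments, a counting error of 2.32% that is understated wherever a shorter transcript is used. The coefficients of variation between libraries ran from 1.84% for Hk2 to 9.78% for Pfkl in triple-deficient retinas, and from 2.21% for Pfkm to 6.79% for Pfkp in controls.

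Triple-deficient 3 often stood at the edge of the range. It was the lowest of the 6 libraries for 6 genes (Hk1, Pfkl, Pfkm, Aldoa, Pkm and Ldhb) and the highest for Pfkp. Its deviation from the mean of the 6 libraries was -0.15 on the log2 scale for Pfkl and Aldoa, whose longest transcripts have GC contents of 57.1% and 56.9%, and 0.05 for Pfkp, at 48.0%. Across the 10 genes, which share the library and are not independent, this deviation correlated with GC content at Pearson -0.90, against 0.81 in triple-deficient 1 and 0.65 in control 3. The Spearman values, in the same order, were -0.84, 0.81 and 0.38. In triple-deficient 2, control 1 and control 2 the Pearson values were 0.17, -0.12 and -0.17. The part of base composition in these values was not tested.

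**Figure D3:**
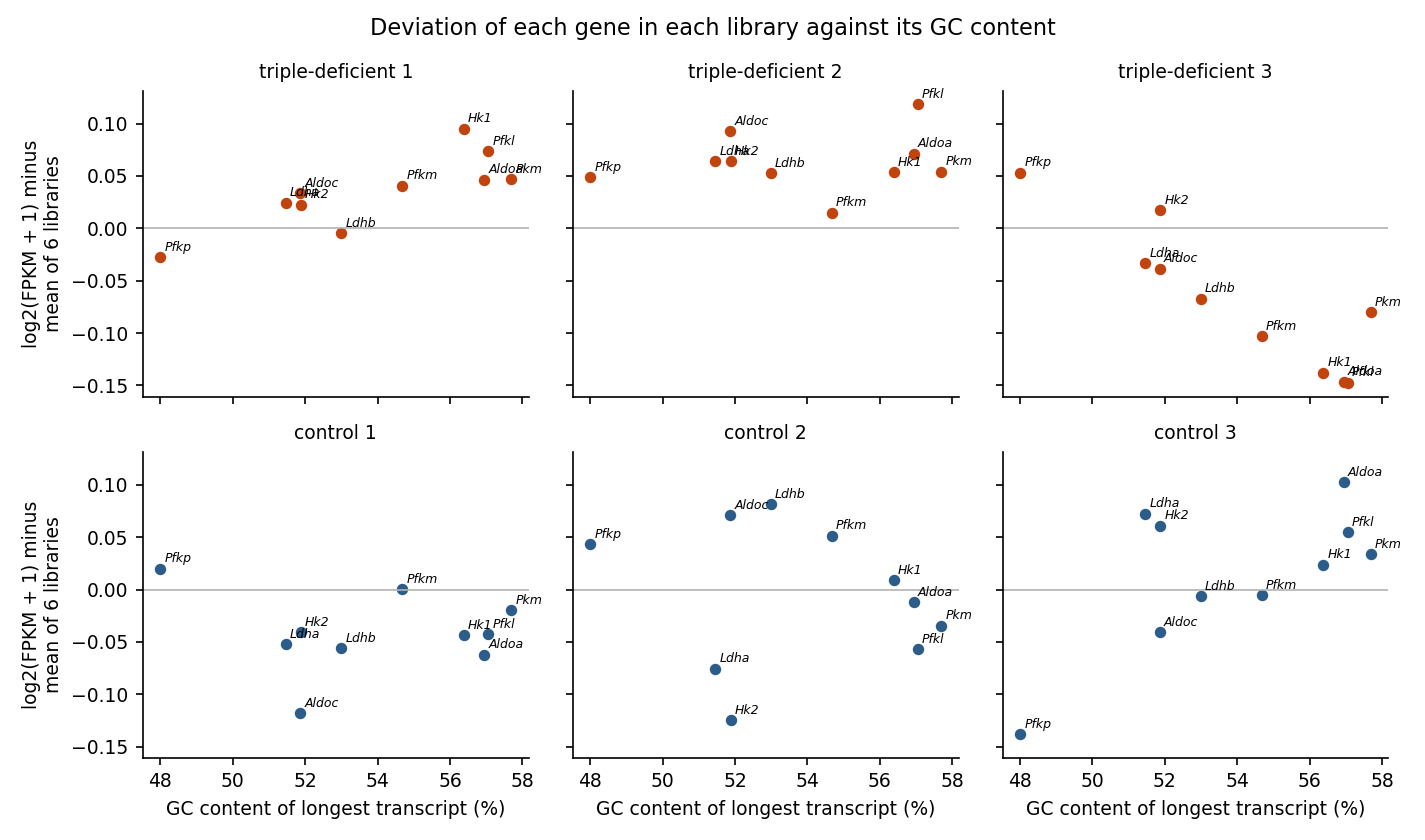
Deviation of each enzyme gene from its mean over the 6 libraries (log2(FPKM + 1), y axis) against the GC content of its longest transcript (percent, x axis), 1 panel per library, triple-deficient above control. In triple-deficient 3 the genes of high GC content lie lowest, with Aldoa and Pfkl near -0.15 and Pfkp at 0.05.

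Without triple-deficient 3, all 10 log2 changes were above 0, from 0.01 for Pfkm to 0.11 for Pfkl, with a median of 0.06, while the median over all genes was 0.0024. None passed, and the smallest unadjusted p was 0.0592. As that library was the lowest for 6 of the genes, leaving it out raises their changes by arithmetic, so this fit is no support for higher levels. With triple-deficient 2 left out instead, 4 of the 10 changes were above 0 and the median was -0.01. Without triple-deficient 1, control 1, control 2 or control 3, the number above 0 was 5, 6, 7 and 7, in that order. With the trends of GC content and length removed from all 6 libraries, 9 of the 10 were above 0, the median was 0.04 and none passed.

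**Figure D4:**
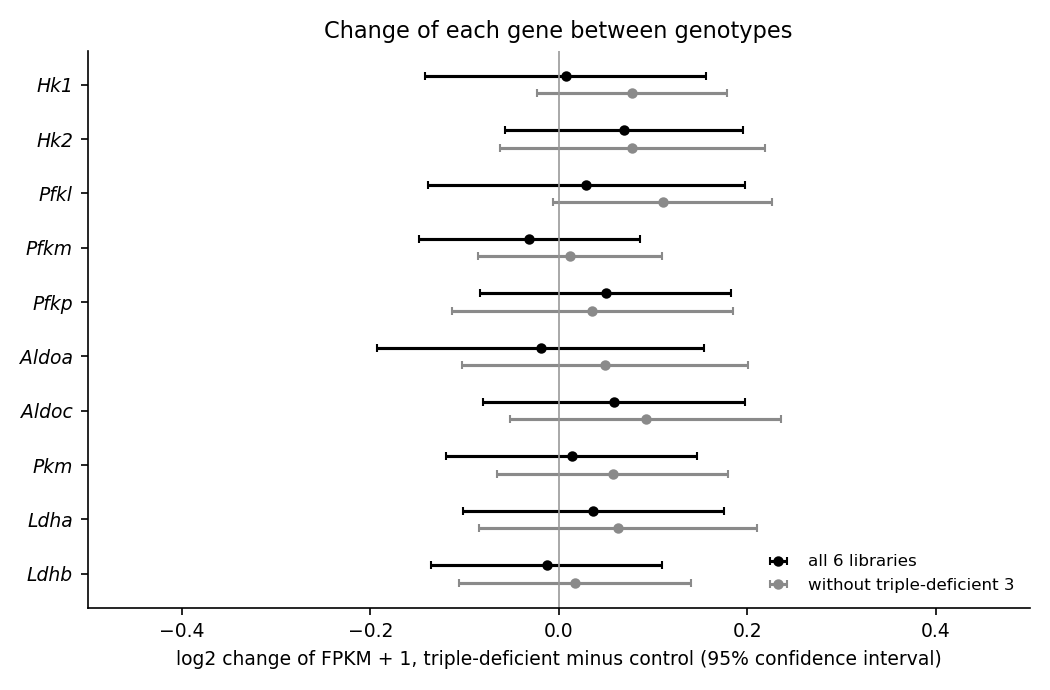
Log2 change of each enzyme gene, triple-deficient minus control, with its 95% confidence interval, from all 6 libraries (black) and without triple-deficient 3 (grey). Each interval crosses 0 in both fits, and without that library the 10 estimates run from 0.01 to 0.11.

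Hk2, the enzyme gene with the smallest unadjusted p (0.242), was followed most closely over the 6 libraries by Pxmp4 (Pearson 0.99), Rchy1 (0.98) and Gtf2h5 (0.98), among 10194 genes averaging 5 FPKM or more. All shared the low value of control 2: Pxmp4 was at 10.7, 11 and 10.6 FPKM in triple-deficient libraries, against 10.3, 9.59 and 11.1 FPKM in controls. With only 6 libraries, 82 genes had a correlation of at least 0.9 with Hk2. The closest of the other enzyme genes was Ldha, at 0.89.

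The other genes of the pathway were read from lists. Of 14 tested of 19 other glycolytic enzymes, none passed, with 7 above 0 and a median log2 change of 0.0012. Eno1, the common enolase, had 477, 546 and 530.1 FPKM in triple-deficient libraries, against 456, 503 and 453 FPKM in controls, a difference of 0.14 on the log2 scale that did not pass (SE 0.070, limma adjusted p = 0.943). Only 1 of the 3 triple-deficient values fell below the highest control. Pgk1, which makes ATP ahead of pyruvate kinase, averaged 249.1 ± 10.8 and 239 ± 11.5 FPKM. Gapdhs, the sperm form of glyceraldehyde-3-phosphate dehydrogenase, averaged 0.590 ± 0.083 and 0.429 ± 0.158 FPKM (SD, n = 3 each).

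Of 16 tested of 17 regulators of glycolytic flux, none passed, with 12 above 0 and a median of 0.08. Hif1a, the oxygen-regulated activator of many glycolytic genes, had 126, 128 and 134 FPKM in triple-deficient libraries, against 119, 121 and 117 FPKM in controls. The groups did not overlap, and the log2 change was 0.12 (SE 0.045, limma adjusted p = 0.896). Its highest value came from triple-deficient 3, and its transcript has a GC content of 41.3%. Ppargc1a, a co-activator of mitochondrial genes with a GC content of 41.7%, averaged 11.3 ± 0.530 and 10.2 ± 0.240 FPKM (limma adjusted p = 0.943), again highest in triple-deficient 3. With GC content and length trends removed, the log2 changes were 0.08 for both Hif1a and Ppargc1a. Tigar, which lowers the phosphofructokinase activator fructose-2,6-bisphosphate, averaged 12.1 ± 1.02 and 10.9 ± 0.323 FPKM, a log2 change of 0.14 that was 0.08 without triple-deficient 3.

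None of 9 carriers of glucose and lactate passed, with 7 above 0 and a median of 0.02. Slc16a1, a lactate transporter, had 36.3, 38.0 and 35.9 FPKM in triple-deficient libraries, against 30.5, 35.9 and 34.5 FPKM in controls, groups that only just did not overlap (log2 change 0.13, limma adjusted p = 0.943). Without control 1 the change was 0.06. Slc2a4, the insulin-responsive glucose transporter, averaged 4.12 ± 0.579 and 3.41 ± 0.196 FPKM. Slc16a8, the lactate transporter of the retinal pigment epithelium, had 1.44, 1.42 and 0.667 FPKM, against 2.33, 2.18 and 1.32 FPKM in controls, a difference of -0.44 on the log2 scale that did not pass (SE 0.185, limma adjusted p = 0.943). It was -0.26 without triple-deficient 3, -0.28 with GC content and length trends removed, and -0.71 with a pseudocount of 0.1. Of 10 markers of the pigment epithelium 6 were tested, 3 had an unadjusted p below 0.05 and none passed. Their summed level was 14.6 to 21.7 FPKM in triple-deficient and 22.4 to 34.5 FPKM in control libraries. Ttr, the highest of the list, averaged 8.81 ± 1.66 and 15.8 ± 3.26 FPKM, and none of the 6 log2 changes was above 0. Rpe65 overlapped between the groups and was highest in triple-deficient 3, at 3.81 FPKM, the library with the lowest Slc16a8. Lrat and Slc45a2, below the filter, averaged higher in triple-deficient libraries. Of these markers Mlana was listed at 0 in triple-deficient 3, and their part in the Slc16a8 values was not tested.

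Of 22 tested of 23 genes for pyruvate entry into mitochondria and NADH shuttles, none passed, with 15 above 0 and a median of 0.02. Mpc2, a subunit of the mitochondrial pyruvate carrier, had 47.2, 46.9 and 45.0 FPKM in triple-deficient libraries, against 48.9, 54.7 and 58.3 FPKM in controls. The groups did not overlap, and the log2 change was -0.21 (SE 0.066, limma adjusted p = 0.836). Its partner Mpc1 averaged 75.8 ± 5.58 and 72.5 ± 3.29 FPKM. Pdhb, a subunit of pyruvate dehydrogenase, averaged 99.2 ± 4.19 and 92.5 ± 2.04 FPKM, and Gpd1, of the glycerol phosphate shuttle, 1.64 ± 0.358 and 1.28 ± 0.099 FPKM (SD, n = 3 each). Neither passed.

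**Figure D5:**
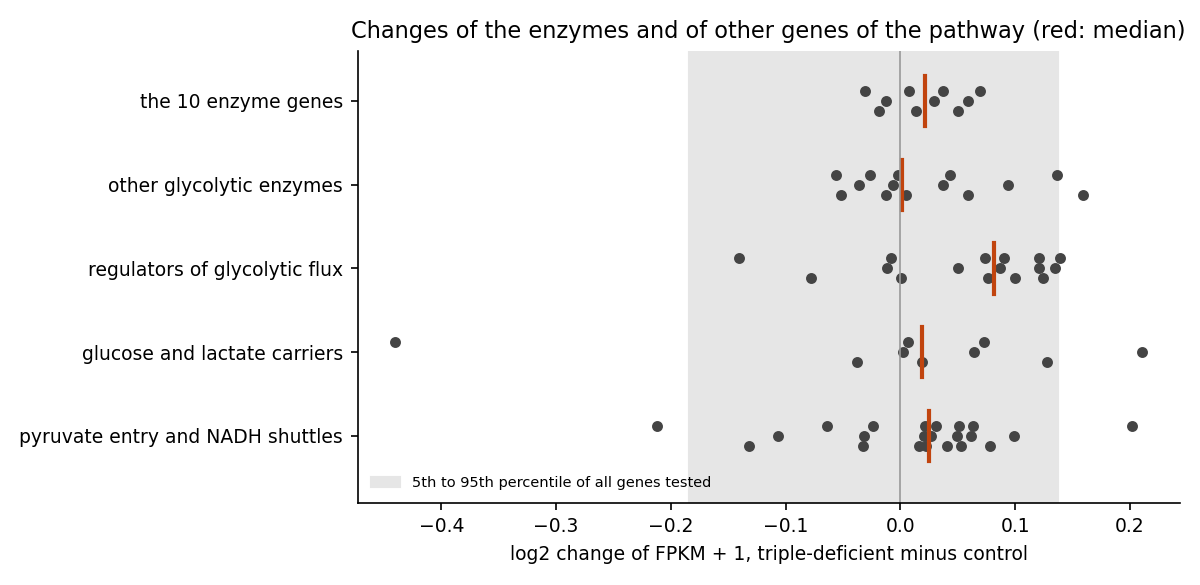
Log2 change of each tested gene (x axis), triple-deficient minus control, in the 10 enzyme genes and 4 lists of other genes of the pathway, with the median of each in red. The 10 enzyme genes all lie within the grey band, which spans the 5th to 95th percentile of all genes tested, -0.18 to 0.14.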

How the data were processed

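Per the labels' protocols, TRIzol was used on retinal RNA and a stranded TruSeq mRNA kit for library preparation. The deposited tables hold 1 FPKM value for each gene symbol in each library, per the file headers, and were used without rescaling. The submitters' processing notes name Cuffdiff, Cufflinks 2.2.1, TopHat2 2.1.1 and Bowtie2 2.3.5.1 and the build mm10, but not how each was used.

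Read totals were estimated from steps of values below 0.3 FPKM: 61.1% to 64.1% of ratios to control 1 lay within 0.005 (log2) of a quotient of whole numbers no larger than 6, and 148 single-transcript genes of at least 2000 bases put control 1 at 22.5 M fragments (interquartile range 22.0 to 22.9).

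Genotypes were compared with limma 3.58.1 (R 4.3.3, mean-variance trend) on log2(FPKM + 1) over genes averaging 0.5 FPKM or more, two-sided, adjusted by Benjamini-Hochberg over all genes tested, threshold 0.05. Changes are triple-deficient minus control and understate those of low genes. The fit was tested on simulated data. Whether each library comes from its own animal is not stated, so p-values cover the spread between these samples. The design text speaks of littermate pairs, but no label ties the replicate numbers to them, so the main model has no term for the number.

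GC content came from the longest GENCODE M21 transcript, known for 99.3% of genes tested, and coordinates and promoters from RefSeq (GRCm38.p6). The members and lists were chosen with earlier results of these data known. The rule for named genes covers the 10 enzymes, any pathway gene that passes and the 3 with the smallest p per list, the targeted genes, close relatives of a member and the 3 genes most like Hk2. Cell type markers are named where a result turns on them. Hkdc1, Hk1os, Senp1, Pklr, Ptbp1, Hnrnpa1 and Mpc1 were added after their values were seen. In the main fit no gene in any list of cell type markers passed. These were the cone, rod, Müller glia, bipolar, amacrine and ganglion, pigment epithelium, lens, endothelial and blood, and microglia lists. Without control 3, 1 gene of the pigment epithelium list passed, lower in triple-deficient libraries. Alternatives covered the pseudocount, filters, scaling, the model, base composition, the replicate number and each library left out.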

Additional observations from a re-analysis of the deposited data

How the results depend on the processing

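None of the 10 enzyme genes and none of the genes in the 4 pathway lists passed under any of 17 alternatives, and the lowest adjusted p of an enzyme gene in any of them was 0.642, for Hk2 with array quality weights. The number of genes called over all genes was 4, 7 with no filter on low values, 2 with robust shrinkage, and 3 to 11 when 1 library was left out. It was 10 without triple-deficient 1, 11 without triple-deficient 3 and 7 without control 3. Same-numbered libraries of the groups deviated together at correlations of 0.02, 0.11 and 0.07, triple-deficient 2 and 3 correlated best with their own number and triple-deficient 1 with control 3, and the fit with the replicate number as a block called 4 genes.

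The signs of small changes were not stable. With quantile normalization Aldoa moved to 0.0049, with array quality weights to 0.051, and with GC content and length trends removed, with or without the replicate block, to 0.028. Ldhb moved to 0.014 with array quality weights and 0.0068 with those trends removed, with or without the replicate block. With 1 library left out, log2 changes ran from -0.038 to 0.078 for Hk1, -0.022 to 0.11 for Pfkl, -0.059 to 0.012 for Pfkm, -0.0067 to 0.084 for Pfkp, -0.060 to 0.049 for Aldoa, -0.010 to 0.057 for Pkm and -0.044 to 0.025 for Ldhb. The cause was not tested. Hk2, Aldoc and Ldha stayed above 0 in each alternative, Hk2 between 0.02 and 0.12. With 3 libraries per group, leaving 1 out cannot move a group difference in isoform shares by a full pooled SD between replicates. Those fits therefore could not test how stable the shares are. Of the pathway genes named, Gapdhs was at 0.06 without control 3 and 0.43 with a pseudocount of 0.1, Pgk1 at 0.02 without control 1, Slc2a4 at 0.13 and Gpd1 at 0.09 without triple-deficient 1, and Pdhb at 0.06 without triple-deficient 3. FPKM without read totals, 3 libraries per group and 1 value per gene limit what can be seen: isoforms by splicing are not resolved.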
